A study of Mus musculus with 4 samples.

Results

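The genes that drive transcription and 3′ end formation of replication-dependent histone mRNAs were compared between mouse embryonic stem cells (ESCs) grown in serum and in 2i. The members are 10 named genes, chosen for their known roles, though with earlier results of these data known. They include Npat and Casp8ap2, which act at histone genes, and Slbp, Zfp473 and Eri1, which meet the histone stem-loop. The others are Lsm10 and Lsm11 of the U7 small nuclear ribonucleoprotein (snRNP), and Cpsf2, Cpsf3 and Sympk of the cleavage complex. All 10 were found among the 14533 genes of the deposited table, and all 10 passed the filter on low values (50 or more normalized counts on average in serum or in 2i), as did 13005 genes in all.

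RNA was sequenced from ESCs that the labels place in late G1-phase, although early G1-phase is the wording of the series design. Serum ESCs grew in medium with fetal calf serum and leukemia inhibitory factor (LIF). 2i ESCs grew in serum-free medium with LIF and 2 kinase inhibitors, PD0325901 against MEK and CHIR99021 against GSK3. Each condition had 2 libraries, described by the submitters as biological replicates, and cells had been adapted to their medium for more than 20 days. The labels give no cell line or genotype for these libraries. The study sorted ESCs that carry the FUCCI fluorescent cell-cycle reporter, which it had made from the line R1.

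Histone mRNAs of the replication-dependent kind end in a conserved stem-loop in place of a poly(A) tail. SLBP binds the stem-loop, the U7 snRNP pairs with a purine-rich element downstream of it, and the endonuclease CPSF3 cuts between them. Transcription of the genes takes place in nuclear histone locus bodies, where NPAT is activated by cyclin E with CDK2 at the approach of S-phase.

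The site at which Slbp, Zfp473 and Eri1 proteins work was read from the genome sequence (mm9) behind the histone genes of the table, to show what these factors have in common as their substrate. Of 68 replication-dependent histone genes, 65 had an annotated coding end, and 57 of these held an exact stem-loop (a stem of 6 base pairs and a loop of 4 bases) within 150 bases after it. The stretches below belong to the gene with the highest mean normalized count in each histone class, are written 5′ to 3′ on the strand of the gene, and carry the 16 bases of stem, loop and closing stem in capitals. Hist1h1a lies at chr13:23856256-23856281 (plus strand), Hist2h2aa2 at chr3:96043702-96043727 (minus strand), Hist1h2bf at chr13:23665629-23665654 (minus strand), Hist1h3h at chr13:21809959-21809984 (plus strand) and Hist1h4d at chr13:23673814-23673839 (plus strand).
Hist1h1a: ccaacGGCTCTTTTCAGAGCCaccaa
Hist2h2aa2: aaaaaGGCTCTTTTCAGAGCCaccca
Hist1h2bf: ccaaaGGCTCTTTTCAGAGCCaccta
Hist1h3h: tcaaaGGCTCTTTTCAGAGCCaccca
Hist1h4d: ccaaaGGCCCTTTTCAGGGCCactac

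The form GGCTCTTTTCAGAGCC stood behind 35 of the 57 genes, and it was held by 5 of 6 H1 genes, 14 of 16 H2A genes, 9 of 13 H2B genes and 7 of 10 H3 genes with a stem-loop. The 12 H4 genes with a stem-loop carried none of this form. Of them, 8 had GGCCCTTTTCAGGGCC, 2 had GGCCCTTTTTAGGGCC and 2 had GGTCCTTTTCAGGACC. The H4 genes therefore differed from the other classes in the base pairs of the stem, while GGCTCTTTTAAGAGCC, found behind 9 genes of the other classes, differed in the loop. The search took only perfect stems that begin with GG and loops of TT, then T or C, then C, A or T. The shared GG and TT were thus set by the search. A histone gene outside these counts may hold a stem-loop with a mismatch or of another form.

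None of the 10 members passed the test between serum and 2i ESCs in either direction. The test was limma on log2(normalized count + 1), two-sided, with the Benjamini-Hochberg adjustment over all 13005 genes, and calls required an adjusted p-value under 0.05 as well as more than a 2-fold difference. Over all genes, 0% were called higher in serum and 0.0154% (2 genes) higher in 2i. At an unadjusted p-value under 0.05, 1 member, Zfp473, had more in serum and 0 had more in 2i, beside 2.97% and 3% of all genes. By edgeR 0 members were called, beside 0 genes higher in serum and 0 higher in 2i over all genes. By DESeq2 on the recovered whole reads 1 member was called, again Zfp473. Over all genes DESeq2 called 73 higher in serum and 178 in 2i. Both serum libraries lay above both 2i libraries for 5 members, where 20.5% of all genes did so, and below them for 3 members, where 19.4% did so. The log2 fold change was positive for 7 members, with a median of 0.59, and the median over all genes tested was 0.0047. Without 2i replicate 1 it was positive for 6 members, with a median of 0.38. In bulk RNA, fewer cells of a kind and less RNA per cell cannot be told apart.

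**Figure D1:**
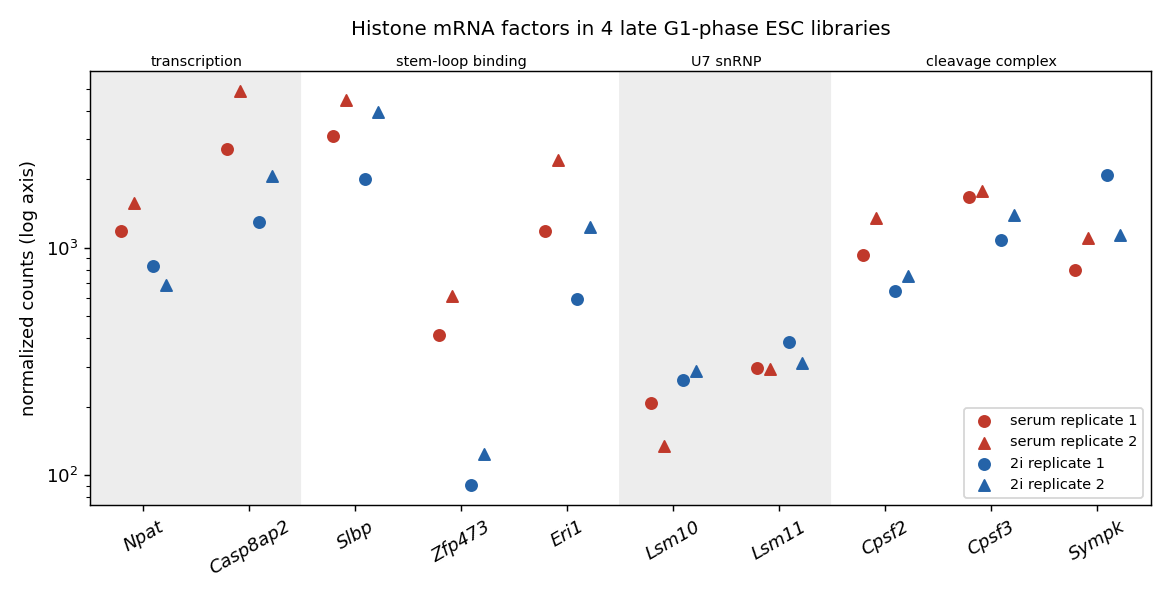
Normalized counts (log axis) of the 10 members in each of the 4 libraries, with serum in red and 2i in blue, replicate 1 as circles and replicate 2 as triangles. The conditions lie furthest apart for Zfp473, at 415 and 611 in serum ESCs against 90.3 and 124 in 2i ESCs, and they overlap for Slbp and Eri1.

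Per kilobase of exon, and averaged over the 4 libraries as a geometric mean, Slbp was the most abundant member at 723 normalized counts per kb. Cpsf3 followed at 567, Casp8ap2 at 359, Eri1 at 238, Lsm10 at 227, Cpsf2 at 166, Npat at 163 and Sympk at 155 normalized counts per kb. Lsm11 at 49.4 and Zfp473 at 23.0 normalized counts per kb closed the order. Of the 9 pairs of neighbours in this order, 8 overlapped in their range over the 4 libraries. The exception was the step from Sympk (103 to 268 per kb) to Lsm11 (45.2 to 59.5 per kb), so the 2 lowest members stood apart from the other 8. Length here was the union of all annotated exons. Slbp and Sympk have 10 annotated transcripts each and Zfp473 has 7, against 1 each for Cpsf2, Cpsf3 and Eri1. Levels of members with many transcripts may thus be understated, in this order and in the ratios between members below. The order was not the same in each condition. Zfp473 had 51.1 normalized counts per kb in serum ESCs (SD 13.8, n = 2) and Lsm11 45.5 (SD 0.495), whereas in 2i ESCs Zfp473 had 10.7 (SD 2.38) and Lsm11 53.8 (SD 8.08). Lsm10, at 181 per kb in serum ESCs, was below Npat (222) and Cpsf2 (215) there, and at 291 per kb in 2i ESCs it was above Casp8ap2 (247).

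Among the stem-loop factors, Zfp473 differed most between conditions. Zfp473 (ENSMUSG00000048012) encodes a zinc finger protein of the U7 snRNP that contacts SLBP on the histone pre-mRNA. Its normalized counts were 415 and 611 in serum ESCs, and 90.3 and 124 in 2i ESCs. The lower serum library was thus more than 3 times as high as the higher 2i library. The log2 fold change was 2.24 with a standard error of 0.52, a fold change of 4.72 with a 95% confidence interval from 2.00 to 11.2, an unadjusted p-value of 0.00415 and an adjusted p-value of 0.75 (limma). Leaving out serum replicate 2 took the unadjusted p-value to 0.0758. DESeq2 gave an adjusted p-value of 0.00555 and edgeR one of 0.692. The gene lies on the minus strand at chr7:51986851-52006420 (mm9), and its 5′ end shares 2638 bases, 205 of them exonic in both genes, with Vrk3 on the opposite strand. The library kit does not mark strand, so reads in the shared exons cannot be assigned. Vrk3 itself had 303 and 288 normalized counts in serum ESCs and 267 and 344 in 2i ESCs, with a log2 fold change of -0.04 and an adjusted p-value of 0.99 (limma).

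Slbp encodes the stem-loop binding protein itself, whose mRNA is present through the cell cycle while its protein is known to peak in S-phase. Its normalized counts were 3096 and 4454 in serum ESCs, and 1998 and 3960 in 2i ESCs. The higher 2i library lay between the serum libraries. Slbp had a log2 fold change of 0.40 with a standard error of 0.53 and an adjusted p-value of 0.87 (limma), and the 95% confidence interval of the fold change ran from 0.542 to 3.21. Without 2i replicate 1 the sign turned, to a log2 fold change of -0.09. Set per kb, the level of Slbp was 16.7 and 16.4 times that of Zfp473 in serum replicates 1 and 2, and 49.7 and 71.6 times in 2i replicates 1 and 2.

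Eri1 encodes the 3′ to 5′ exonuclease that binds the stem-loop together with SLBP, trims the mature end and takes part in histone mRNA decay. It had 1181 and 2436 normalized counts in serum ESCs, and 594 and 1237 in 2i ESCs. The highest 2i value exceeded the lower serum value by a small margin, so the conditions overlapped. In both conditions replicate 2 was about as far above replicate 1 as serum was above 2i: the replicates differed by 1.04 (serum) and 1.06 (2i) on the log2 scale, and the log2 fold change was 0.98 with a standard error of 0.59 and an adjusted p-value of 0.75 (limma).

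Npat and Casp8ap2, the members at the histone locus body, were both higher in each serum library than in each 2i library, and neither passed the test. Npat had 1189 and 1581 normalized counts in serum ESCs, and 828 and 686 in 2i ESCs. The gap between conditions was wider than that between replicates. Its log2 fold change was 0.86 with a standard error of 0.44, a fold change of 1.82 with a 95% confidence interval from 0.879 to 3.76, and an adjusted p-value of 0.75 (limma). A correction for GC content and length took the log2 fold change of Npat to 0.41. Npat, on chr9:53345152-53382447 (mm9), starts 307 bases from Atm, the DNA damage kinase gene on the opposite strand. Atm had 1930 and 3438 normalized counts in serum ESCs against 861 and 1537 in 2i ESCs, a log2 fold change of 1.16 with an adjusted p-value of 0.75 (limma). Neither of these neighbours passed the test.

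Casp8ap2 encodes FLASH, which is required in histone locus bodies and binds LSM11 to recruit the cleavage complex. It had 2724 and 4898 normalized counts in serum ESCs, and 1299 and 2077 in 2i ESCs. Both serum libraries were above both 2i libraries, by 0.39 to 1.91 on the log2 scale over the 4 single-library differences. On average the log2 fold change was 1.15 with a standard error of 0.52, and the fold change was 2.22 with a 95% confidence interval from 0.933 to 5.30 and an adjusted p-value of 0.75 (limma).

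**Figure D2:**
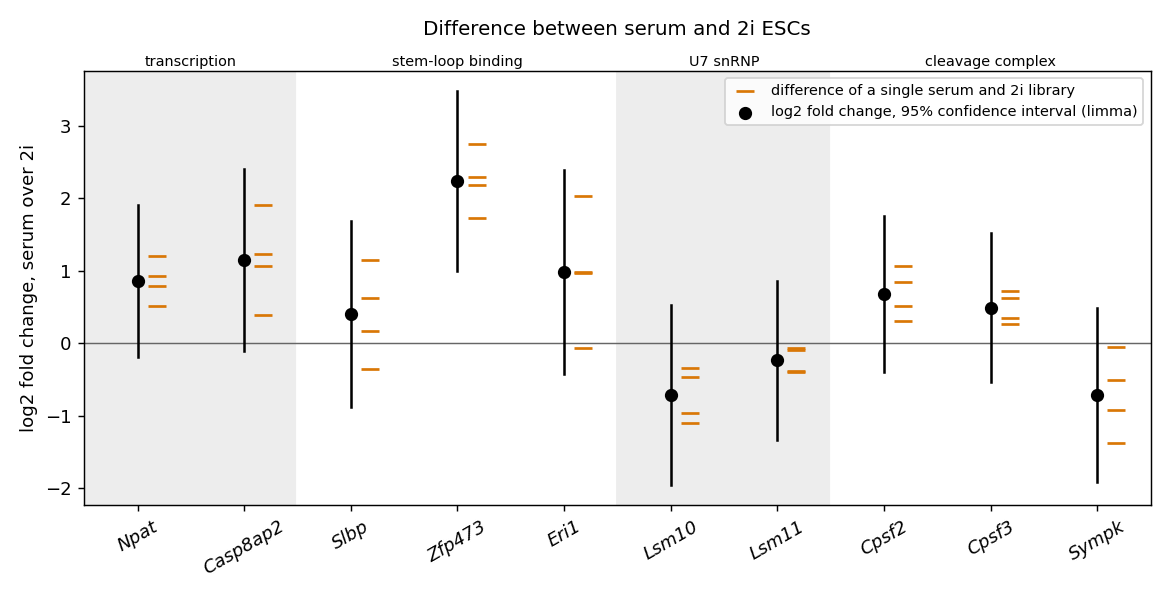
Log2 fold change of serum over 2i for each member (points) with its 95% confidence interval from limma (lines), and the 4 differences between a single serum and a single 2i library (dashes). The interval of Zfp473 reaches up to 3.48 and is the one that leaves out 0, and the 4 dashes of Slbp and of Eri1 fall on both sides of 0.

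Lsm10 and Lsm11, which replace SmD1 and SmD2 in the ring around U7 RNA, were, with Zfp473, the members with the lowest counts, and both had higher values in 2i ESCs. Lsm10 had 207 and 134 normalized counts in serum ESCs, and 262 and 287 in 2i ESCs. Every 2i library was above every serum library. For Lsm10 the log2 fold change was -0.71 with a standard error of 0.52, so Lsm10 stood 1.64-fold higher in 2i with a 95% confidence interval from 0.694 to 3.88 and an adjusted p-value of 0.76 (limma). A correction for GC content and length took the log2 fold change to -0.185. Lsm11 had 296 and 292 normalized counts in serum ESCs, and 384 and 310 in 2i ESCs. The second 2i library was barely above serum. Its log2 fold change was -0.23 with a standard error of 0.46 and an adjusted p-value of 0.92 (limma), and the interval of the fold in favour of 2i ran from 0.549 to 2.51. The products of both genes sit in 1 particle, and the level of Lsm10 per kb was 4.79 and 3.15 times that of Lsm11 in serum replicates 1 and 2, and 4.66 and 6.33 times in 2i replicates 1 and 2. No U7 RNA gene was analysed here.

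The 3 members of the cleavage complex did not share a direction. Cpsf3, which encodes the nuclease that cuts histone and polyadenylated pre-mRNAs alike, had 1671 and 1773 normalized counts in serum ESCs, and 1079 and 1391 in 2i ESCs. Its replicates in serum were the closest among the members with higher values in serum. Cpsf3 had a log2 fold change of 0.49 with a standard error of 0.43 and an adjusted p-value of 0.78 (limma). Cpsf2, the inactive partner of the nuclease, had 927 and 1354 normalized counts in serum ESCs, and 648 and 751 in 2i ESCs. The conditions did not overlap here either, and the log2 fold change was 0.68 with a standard error of 0.44 and an adjusted p-value of 0.76 (limma). The per kb level of Cpsf3 was 3.74 and 2.72 times that of Cpsf2 in serum replicates 1 and 2, and 3.46 and 3.85 times in 2i replicates 1 and 2. Cpsf3 starts 60 bases from Itgb1bp1 on the opposite strand, which had 333 and 273 normalized counts in serum ESCs and 234 and 478 in 2i ESCs. The small RNA gene SNORA21, within an intron of Cpsf3, was not analysed here.

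Sympk encodes symplekin, the scaffold of the cleavage complex, and went the other way. It had 801 and 1099 normalized counts in serum ESCs, and 2085 and 1136 in 2i ESCs. The first 2i library was far above the rest, and the second lay just above serum replicate 2. Sympk had a log2 fold change of -0.71 with a standard error of 0.50, the fold in favour of 2i was 1.64 with a 95% confidence interval from 0.716 to 3.75, and the adjusted p-value was 0.76 (limma). Without 2i replicate 1 the log2 fold change was -0.27. Foxa3, which starts 839 bases from Sympk on the opposite strand, did not pass the filter on low values. Cpsf2 stood at 1.69 and 1.80 times the per kb level of Sympk in serum replicates 1 and 2, and at 0.455 and 0.967 times in 2i replicates 1 and 2.

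Measured against the replicates, the condition difference exceeded both replicate differences for 6 of the 10 members, namely Npat, Casp8ap2, Zfp473, Lsm10, Cpsf2 and Cpsf3. Replicate 2 was above replicate 1 in both conditions for 6 members. The shares of all genes that meet either rule were not computed, so neither count can be read as particular to the members. Over all genes the median absolute difference between replicates was 0.53 in serum and 0.76 in 2i on the log2 scale, and the confidence intervals of the members were correspondingly wide. The interval of every member took in folds above 2 in the direction of its own estimate. With 2 libraries per condition, a difference of that size could thus not be excluded for any member.

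**Figure D3:**
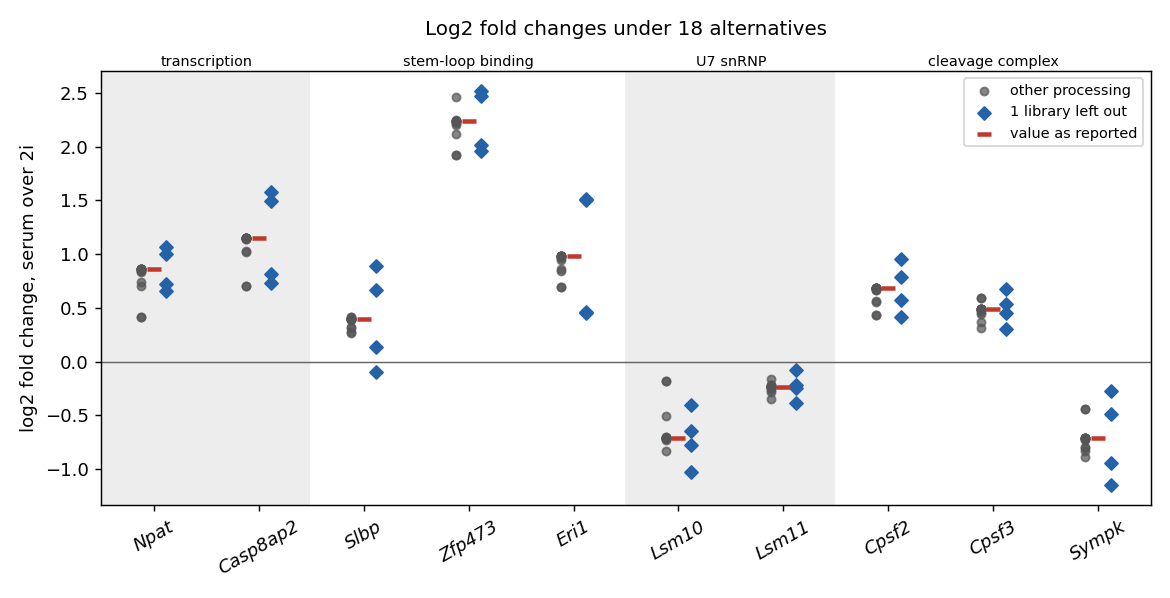
Log2 fold change of serum over 2i for each member as reported (red dashes), under other normalizations, filters and tests (grey points), and with 1 of the 4 libraries left out (blue diamonds). Zfp473 stays between 1.92 and 2.52, and Slbp is the member that crosses 0, at -0.09 without 2i replicate 1.

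Other genes of the same pathway were taken from 6 lists with 80 genes in all, each of which was in the table and passed the filter. None of them was called. At an unadjusted p-value under 0.05, 4 had more in serum (Ccne1, Snrpd3, Smn1 and Papola) and 0 had more in 2i, beside 2.97% and 3% of all genes. Both serum libraries were above both 2i libraries for 28 of the 80 genes and below them for 3, beside 20.5% and 19.4% of all genes. The log2 fold change was positive for 62 of the 80, with a median of 0.44, beside a median of 0.0047 over all genes tested.

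The 8 other transcription factors and kinases of histone genes all had a positive log2 fold change, with a median of 0.60. It was highest for Ccne2 (1.73, adjusted p-value 0.75, limma) and lowest for Trrap (0.10), a scaffold of acetyltransferase complexes. Ccne1 and Ccne2 encode the E cyclins whose kinase activates NPAT. Ccne1 had 2654 and 4612 normalized counts in serum ESCs, and 877 and 1710 in 2i ESCs, a log2 fold change of 1.51 with an adjusted p-value of 0.75 (limma). Ccne2 had 674 and 2141 in serum ESCs, and 189 and 695 in 2i ESCs, so that its conditions overlapped.

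Of the 18 Sm proteins and assembly factors, which load the ring of U7 and other small nuclear RNAs, 17 had a positive log2 fold change, with a median of 0.55. Smn1, the SMN assembly factor, was highest, with 750 and 810 normalized counts in serum ESCs against 369 and 200 in 2i ESCs and a log2 fold change of 1.52 (adjusted p-value 0.75, limma). Gemin8 was lowest at -0.39. Their median was thus opposite in sign to the values of Lsm10 and Lsm11, which share the U7 ring with most Sm proteins. Of 16 cleavage and polyadenylation factors of other mRNAs, 14 had a positive log2 fold change, with a median of 0.55, from Nudt21 at -0.36 to Rbbp6 at 1.32. Papola, the poly(A) polymerase, had 2955 and 3975 normalized counts in serum ESCs against 1635 and 1289 in 2i ESCs.

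The 4 relatives of members divided evenly in sign around a median of 0.40, from Eri3 at -0.32 to Ints9, the Integrator partner of the CPSF2 family, at 1.17. The 9 cap binding and coupling factors had a median of -0.01, from Cobra1 at -0.64 to Srrt, which encodes ARS2, at 1.15. For histone mRNA translation and decay, 17 of 25 genes had a positive log2 fold change, with a median of 0.33. The highest was the decapping enzyme gene Dcp2 at 1.05, and the lowest was Lsm4 at -0.72, a ring protein of the decay complex that binds the oligouridylated tail.

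**Figure D4:**
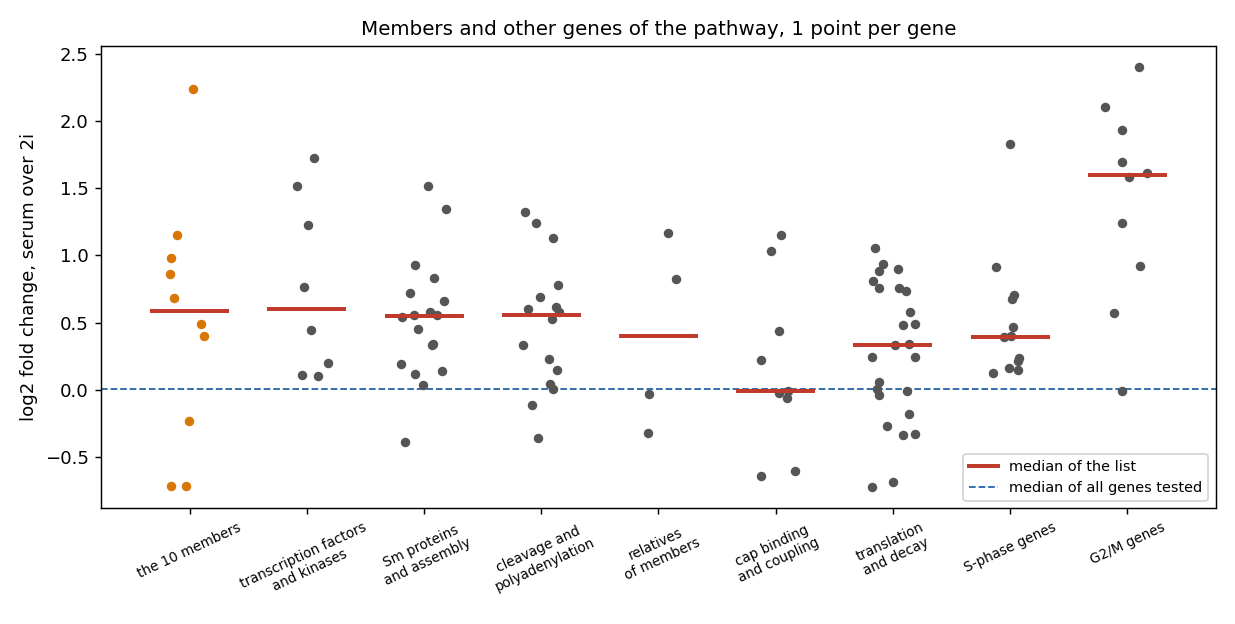
Log2 fold change of serum over 2i for each member and each gene of the lists, 1 point per gene, with the median of each list in red and the median of all genes tested as a dashed line. The medians are 0.59 for the members, 0.60 for transcription factors and kinases, -0.01 for cap binding and coupling factors and 1.60 for G2/M genes.

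The products of the pathway were measured in the same libraries. Summed normalized counts of the 68 replication-dependent histone genes were 244012 and 264257 in serum ESCs, and 119246 and 202325 in 2i ESCs. The sums of H1, H2B and H3 genes were higher in each serum library than in each 2i library, and those of H2A and H4 genes overlapped. The H3 sums, for instance, were 61935 and 50155 in serum ESCs against 27637 and 30716 in 2i ESCs. The H2A sums were 34583 and 39624 against 14850 and 37932, and the H4 sums 40862 and 60941 against 30402 and 54981. Of 67 histone genes tested, 0 were called, 52 had a positive log2 fold change and the median was 0.78. The extremes were Hist1h2ap at 6.76 and Hist1h2aj at -6.49, and since reads shared by near-identical copies were divided by estimation, single histone genes are uncertain. Of the 43-base words in the transcript of Hist1h2ap, 0% were its own, and Hist1h2aj had no such value. Among the members, between 98.0% and 100% of such words occurred in the annotated transcripts of no other gene.

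Cell-cycle genes were measured in the same libraries. Of 10 G2/M genes, 9 were higher in each serum library than in each 2i library, beside 20.5% of all genes. The 10 had a median log2 fold change of 1.60, from Cdk1 at -0.01 to Mki67 at 2.40. At an unadjusted p-value under 0.05 (limma), 7 had more in serum, beside 2.97% of all genes, and none was called. Summed normalized counts of the 10 genes were 25818 and 40132 in serum ESCs against 16478 and 13725 in 2i ESCs. The 12 S-phase genes had a median log2 fold change of 0.40, from Ung at 0.13 to Rrm2 at 1.83, and sums of 54466 and 62290 against 32170 and 53774. Libraries held 18939401 to 26570098 whole reads, and 46.9% to 76.3% of the reads fell on protein-coding genes, least in serum replicate 1. The part of cell-cycle genes and of read composition in the members' values was not tested.

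The labelled cell type was checked with markers. All 11 ESC markers were expressed, with sums of 62682 and 86596 normalized counts in serum ESCs and 76034 and 96257 in 2i ESCs, and log2 fold changes from Dppa5a at -0.93 to Utf1 at 1.27. Of 9 fibroblast markers, for feeder cells, 2 were in the table, with sums between 58.2 and 230.1 normalized counts per library, from Col1a1 at a log2 fold change of -1.33 to Thy1 at 2.40. Of 8 primitive endoderm markers 5 were in the table, with sums between 1456 and 2328, most of it Lama1 (1384 to 2219, log2 fold change 0.25), and Gata4 was at 13.0 and 42.8 in serum ESCs against 151.6 and 168.8 in 2i ESCs (log2 fold change -2.70).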

How the data were processed

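RNA was sequenced from 2 serum and 2 2i ESC libraries (rRNA-depleted, randomly primed, single-end reads of 43 bases). The authors aligned reads to mm9 with Bowtie, estimated expression with MMSeq and scaled each library. Versions and annotation release are not given in the sources used here. The deposited values are a signal, gene counts divided by 1 size factor per library (normalized counts), of which 100% came out as whole reads within 0.01. The step of serum replicate 1 lay so close to 1 that wholeness says less there at low counts, and the edgeR and DESeq2 results rest on these reads. In R 4.3.3, limma 3.58.1 was fitted to log2(normalized count + 1) with its variance trend and without a replicate term. This scale understates changes of low genes. Alternatives used edgeR 4.0.16 and DESeq2 1.42.0 on whole reads. The script was tested on simulated data with known changes, at a low spread and at the spread estimated from these data. Recovery was required only at the low spread, which is well below that of these data. Recovery at the estimated spread is not reported here, so the power of the test is not shown. Gene positions came from GENCODE vM1, of the same build. Members and lists were chosen with earlier results of these data known. The text names all members, the highest and lowest gene of each list, genes that overlap a member or start within 1000 bases of it, and, chosen after their values were seen, list genes with an unadjusted p-value under 0.05 in lists with few of these. With 2 libraries against 2, exact permutation could not go below 0.333, so no such test was used.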

Additional observations from a re-analysis of the deposited data

How the results depend on the processing

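The log2 fold changes of 9 of the 10 members kept their sign under all 18 alternatives, and that of Slbp ranged from -0.0927 (without 2i replicate 1) to 0.8934 (without 2i replicate 2) with 1 library left out. Sizes moved more. The GC content and length correction took Npat to 0.41, Casp8ap2 to 0.70, Cpsf2 to 0.43, Lsm10 to -0.185 and Sympk to -0.44. With 1 library left out, Eri1 ranged from 0.46 to 1.51, Casp8ap2 from 0.73 to 1.58, Cpsf2 from 0.41 to 0.96, Lsm10 from -1.03 to -0.40, Sympk from -1.15 to -0.27, Lsm11 from -0.39 to -0.08, Cpsf3 from 0.31 to 0.67, and the median of the members from 0.381 to 0.809. No member was called under 17 of these alternatives, and 1 (Zfp473) was called under DESeq2. Counts over all genes moved as well. Genes called higher in 2i numbered 2 as reported, 4 when 200 normalized counts were required on average, 0 with protein-coding genes alone, 0 with a GC content and length correction, 1 without the variance trend, 0 with edgeR and 178 with DESeq2, which called 73 higher in serum. With 1 library left out they ranged from 0 to 8, with 8 without serum replicate 1 and 0 without each of the others. The lone library of a condition is then assumed to vary like the other condition. With a replicate block 44 genes were called higher in serum and 159 in 2i, and Zfp473 had an adjusted p-value of 0.0581 (limma). With the GC content and length correction added to the block, 1 gene was called higher in serum and 3 in 2i. The replicates share only a number, and over all genes the replicate differences of both conditions had a correlation of 0.48. The median log2 fold change of all genes shifted to 0.117 with 200 normalized counts required and to -0.116 with upper quartile scaling. The cause of these shifts was not tested. Having 2 libraries per condition limited the test.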
